A study of Homo sapiens with 6 samples.

Results

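Of the 171517 accessible sites that the ATAC-seq count table holds, 23726 (13.8%) lay on autosomes with their centre more than 100 kb from the nearest start of a protein-coding transcript. They are called far peaks here. Transcript starts were those of GENCODE 44 on hg38, and the rule used position only, so no count entered the choice of a peak. The far peak nearest the border lay 100001 bp from a start and the farthest 5507869 bp, with a median of 199626 bp.

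The libraries came from naive human embryonic stem (nES) cells of H9, an established line, so all values describe 1 cell line. Cells were held at low oxygen in tt2iLGö medium, which contains LIF and inhibitors of MEK (PD0325901), GSK3 (CHIR99021) and protein kinase C (Gö 6983), and were moved from mouse feeder cells onto laminin before treatment. 3 libraries were controls, labelled DMSO and described by the study as 0 mM, and 3 came from cells given 4 mM dimethyl α-ketoglutarate (dm-αKG), a cell-permeable form of the metabolite α-ketoglutarate, for 24 h. All groups shared the medium and its inhibitors. Nothing in the labels says whether replicates came from separate cultures, although the study calls them biological, so p-values measure the spread between these libraries.

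In ATAC-seq, a transposase cuts open chromatin, and reads at a site increase with its accessibility. Open sites far from any coding start are mostly candidate enhancers, stretches that bind transcription factors and contact promoters over long distances, together with CTCF-bound sites that anchor chromatin loops and starts of noncoding RNAs. In pluripotent cells many enhancers are bound by OCT4 and SOX2 together. A part of such sites lies in copies of transposable elements, which carry binding sequences to many places in the genome. α-Ketoglutarate is a cosubstrate of enzymes that demethylate histones and DNA.

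Counts in peaks lay between 13025674 and 26828622 per library. Over the far peaks, log2 CPM correlated at 0.897 to 0.941 between libraries of 1 treatment and at 0.847 to 0.88 between treatments, as a description across peaks, which are not independent. The naive state was checked on promoter peaks: 11 of 12 markers of naive cells had one, with a median of 350.3 normalized counts in control and DPPA3 as the exception, against 149 for 8 of 8 markers of primed cells, 195 for 7 of 8 trophoblast markers and 151 for 4 of 8 fibroblast markers, in which COL3A1, LUM, DCN and PDGFRB had none. An open promoter does not show that a gene is transcribed.

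Sequences of far peaks among those with the clearest change in each direction are given first, as 200 bp around the centre of the peak on the forward strand of hg38. Capitals mark words that match a consensus binding sequence, on either strand. Among the less accessible peaks, the XYLT1 window (chr16:17083697-17083896) holds an octamer of POU factors such as OCT4 and a TEAD word, and the LRRC4C window (chr11:40030942-40031141) a KLF word and a SOX word.
XYLT1: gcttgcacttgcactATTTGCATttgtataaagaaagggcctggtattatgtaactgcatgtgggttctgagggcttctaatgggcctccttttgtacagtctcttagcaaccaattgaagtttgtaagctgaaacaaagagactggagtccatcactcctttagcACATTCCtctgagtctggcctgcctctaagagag
LRRC4C: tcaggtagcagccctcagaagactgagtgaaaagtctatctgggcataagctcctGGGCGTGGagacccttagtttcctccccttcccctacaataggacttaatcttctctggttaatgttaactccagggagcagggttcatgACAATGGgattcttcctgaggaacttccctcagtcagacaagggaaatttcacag

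Among the more accessible peaks, the TCF7L2 window (chr10:112815716-112815915) holds an AP-1 word, the site of JUN and FOS dimers. In the HS6ST1 window (chr2:128577174-128577373) an E-box and an NRF2 word overlap, and the NTMT1 window (chr9:129490037-129490236) holds an E-box.
TCF7L2: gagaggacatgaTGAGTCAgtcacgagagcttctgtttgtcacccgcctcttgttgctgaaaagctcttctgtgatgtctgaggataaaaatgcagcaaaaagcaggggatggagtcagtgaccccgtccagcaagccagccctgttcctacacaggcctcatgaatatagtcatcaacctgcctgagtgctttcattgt
HS6ST1: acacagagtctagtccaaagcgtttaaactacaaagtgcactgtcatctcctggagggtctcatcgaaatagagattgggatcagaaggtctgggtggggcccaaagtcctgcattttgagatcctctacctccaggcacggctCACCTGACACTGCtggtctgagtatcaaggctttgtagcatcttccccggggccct
NTMT1: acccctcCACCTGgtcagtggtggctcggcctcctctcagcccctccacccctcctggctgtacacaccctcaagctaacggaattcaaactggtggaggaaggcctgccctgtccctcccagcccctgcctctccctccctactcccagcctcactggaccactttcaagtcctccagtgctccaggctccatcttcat

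With dm-αKG, 654 far peaks became less accessible and 293 more accessible, at an adjusted p below 0.01 and a change of more than 1 on the log2 scale in edgeR's quasi-likelihood test, fitted and adjusted over all peaks. These are 2.76% and 1.23% of the far peaks, where the background over all peaks was 1.96% less accessible and 0.782% more accessible. The less accessible ones fell from a median of 57.8 normalized counts in control to 24.2, a median log2 fold change of −1.25. In these bulk libraries, fewer cells with a site open and less opening per cell cannot be told apart. More accessible far peaks rose from a median of 18.4 to 44.6, a median log2 fold change of 1.28. Over all 23726 far peaks the median log2 fold change was −0.06, against 0.01 over all peaks of the table, and the central 90% lay between −0.92 and 0.74.

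Of the 947 called far peaks, 69.1% were less accessible, close to the 71.5% of all called peaks. That split changed with a correction for base composition. Far peaks had a median GC content of 50.5%, below the 55.5% of all peaks, and with an offset for GC content in each library the counts were 475 less and 411 more accessible, of which 53.6% were less accessible, against 58.5% for all called peaks under the same offsets. The third dm-αKG library, which had the fewest counts, stood nearest to the controls, and without it 737 far peaks were less and 267 more accessible.

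The share less accessible was close on both sides of the 100 kb border, and the share more accessible was higher beyond it, by less under DESeq2. Peaks 10 to 100 kb from a start had 2.73% less and 0.877% more accessible, and those at 100 to 200 kb had 2.93% and 1.24%. Within the far peaks, the share less accessible was 2.55% at 200 to 500 kb and 2.66% beyond 500 kb, and the share more accessible 1.31% and 1.05%. DESeq2 called 0.52% more accessible at 10 to 100 kb, 0.606% at 100 to 200 kb, 0.694% at 200 to 500 kb and 0.537% beyond 500 kb. Median control counts in these bands were 54.4, 47.8, 43.1 and 41.1, and whether count level accounts for the difference was not tested. Beyond 500 kb the counts of 104 less and 41 more accessible were 69 less without dm-αKG library 1 and 24 more without control library 3. Peaks within 1 kb of a start differed in direction, with 0.22% less and 0.467% more accessible and a median log2 fold change of 0.11. Their 206 more accessible peaks were 313 (0.709%) without dm-αKG library 3, 143 (0.324%) without dm-αKG library 1 and 129 (0.292%) under DESeq2. On either side of the border, the peaks nearest GUCY1A2, MYO16 and ZFHX3 just inside had log2 fold changes of 0.16, 0.23 and −0.34, and those nearest ZC3H15, PRSS58 and TTLL11 just outside had −0.08, −0.53 and 0.25.

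**Figure D1:**
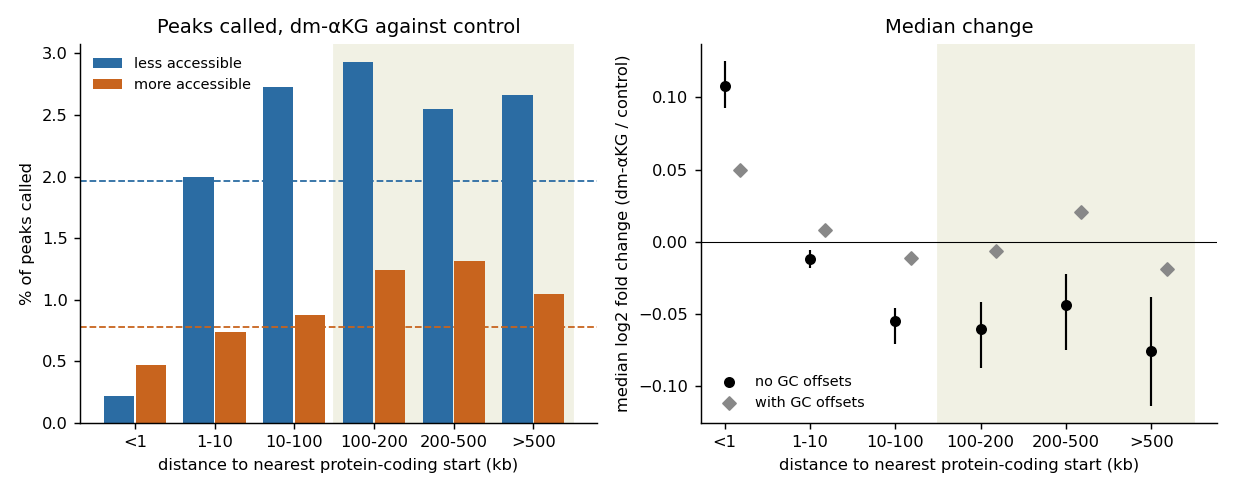
Left, percent of peaks called less and more accessible by distance to the nearest protein-coding start, with dashed lines at the percent over all peaks (1.96 and 0.782) and far peaks shaded. Right, median log2 fold change in each band, where vertical lines span the values with 1 library left out and diamonds show the fit with GC offsets, under which the far bands lie between −0.02 and 0.02.

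Far peaks took a smaller part of the counts in the dm-αKG libraries. In control libraries 1, 2 and 3 they held 8.97% (95% Wilson interval 8.96 to 8.98), 8.88% (8.87 to 8.89) and 8.94% (8.93 to 8.95) of the counts in peaks. With dm-αKG the shares were 8.28% (8.27 to 8.29), 8.35% (8.33 to 8.36) and 8.82% (8.81 to 8.84). The treatments did not overlap, and the means were 8.93% ± 0.0483 and 8.48% ± 0.298 (SD, n = 3 each), a difference of −0.446 percentage points. Peaks at 100 to 200 kb did not overlap either (4.83% ± 0.0142 and 4.57% ± 0.136), while those at 200 to 500 kb and beyond 500 kb did. A share of a fixed total falls where another part rises: peaks within 1 kb of a start gained 2.45 points, and peaks at 10 to 100 kb lost 1.49. Intervals cover counting error only.

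**Figure D2:**
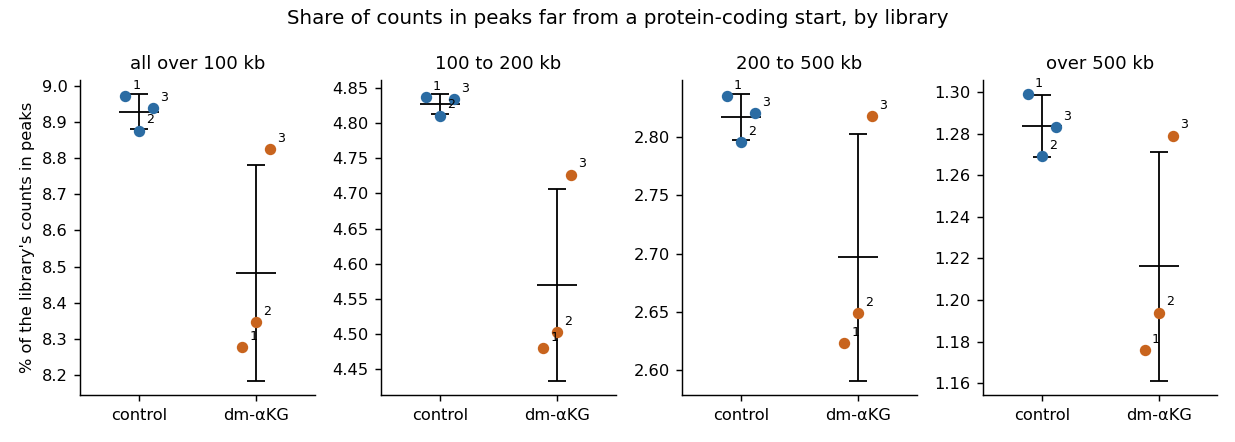
Percent of each library's counts in peaks that fell in far peaks, for all of them and for 3 bands of distance; points are libraries numbered by replicate, and bars are the mean and SD of 3. The third dm-αKG library lies nearest the controls in every panel, at 8.82% in the first. The axes do not start at 0.

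The less accessible far peak with the smallest adjusted p lay 154472 bp upstream of LZTS1, which encodes a leucine zipper protein (chr8:20458331-20458540). It held 402, 432 and 503 normalized counts in the controls and 106, 117 and 184 with dm-αKG, and its log2 fold change was −1.77 ± 0.12 (SE; edgeR adjusted p = 1.65e-22). Of 23 far peaks nearest this gene, 7 became less accessible (30.4%) and 0 more, against 2.76% and 1.23% of all far peaks. LZTS1 had the most called far peaks of 2978 nearest genes, so this count is the top of a ranking on the same calls. The gene is named only as the nearest, which does not show that it is the target.

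Near TENM3, a teneurin of neuronal wiring, a peak with a TEAD word lay inside the antisense noncoding gene TENM3-AS1 and held 282, 288 and 306 counts in control and 73.1, 91.1 and 85.3 with dm-αKG (log2 fold change −1.83 ± 0.13, edgeR adjusted p = 1.69e-20). The XYLT1 peak (chr16:17083694-17083898), downstream of the enzyme that starts the sugar chains of proteoglycans, went from 454, 469 and 424 to 202, 172 and 196. Nearest to LRRC4C, a synaptic adhesion protein, counts of 484, 449 and 437 stood against 204, 146 and 232. Peaks were named by rank only if the treatments did not overlap. In all 3 the highest treated library lay below the lowest control by more than the range of either group.

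MYC, a transcription factor of growth and proliferation, was the nearest gene of 51 far peaks, of which 6 became less accessible and 0 more. The one with the smallest adjusted p lay 129735 bp downstream inside the noncoding gene PVT1 and held 319, 317 and 361 counts in control and 135, 121 and 111 with dm-αKG (log2 fold change −1.42 ± 0.12, edgeR adjusted p = 2.46e-17). SOX2, a core factor of pluripotency, had 32 far peaks with 3 less (9.38%) and 0 more accessible. One lay 203744 bp downstream (chr3:181915570-181915769) and went from 287, 255.6 and 248 counts to 82.5, 91.1 and 111 (log2 fold change −1.51 ± 0.13, edgeR adjusted p = 6.08e-16). The remaining 2 of the 8 less accessible peaks named by rank lay near SLC1A4, a transporter of neutral amino acids (−1.74), and SFSWAP, a splicing regulator (−1.01). The SFSWAP change was under the fold for a call without control library 2 (−0.95) or dm-αKG library 3 (−0.98), and with total counts (−0.99).

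The more accessible far peak with the smallest adjusted p lay in VTI1A, a gene of vesicle fusion, 134432 bp upstream of TCF7L2, the transcription factor that carries WNT signals (chr10:112815716-112815915). It rose from 61.7, 68.2 and 64.4 counts to 199, 235 and 208, a log2 fold change of 1.71 ± 0.15 (edgeR adjusted p = 4.79e-16). Upstream of HS6ST1, which sulfates heparan sulfate, counts of 82.3, 80.6 and 83.8 rose to 242, 218 and 253 (1.53 ± 0.14). The NTMT1 peak, in the noncoding gene LINC00963, rose from 145, 109 and 148 to 307, 287 and 255 (1.1 ± 0.12). That no control library reached a treated one was a condition for naming these peaks.

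Lower in rank, a peak in PLXNA4, a receptor of semaphorins, held 18.8, 23.8 and 36.4 counts in control and 110, 103 and 85.3 with dm-αKG. At PENK, the precursor of enkephalins, counts of 7.16, 9.86 and 7.29 stood against 50.2, 51.3 and 47.9, the largest fold among the 16 peaks named by rank (log2 fold change 2.59 ± 0.34). The others lay near CDH5, the cadherin of endothelium (1.03), RTL1, an imprinted gene derived from a retrotransposon (1.38), and BUD13, a splicing factor (1.28). Without control library 2 the NTMT1 change was 0.97, and without control library 3 the CDH5 change was 0.97, both under the fold for a call. Named peaks that rose started lower: their control means lay between 8.1 and 134, and those that fell between 229 and 491. Because the peaks were picked by their change in these same counts, this is a description only.

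**Figure D3:**
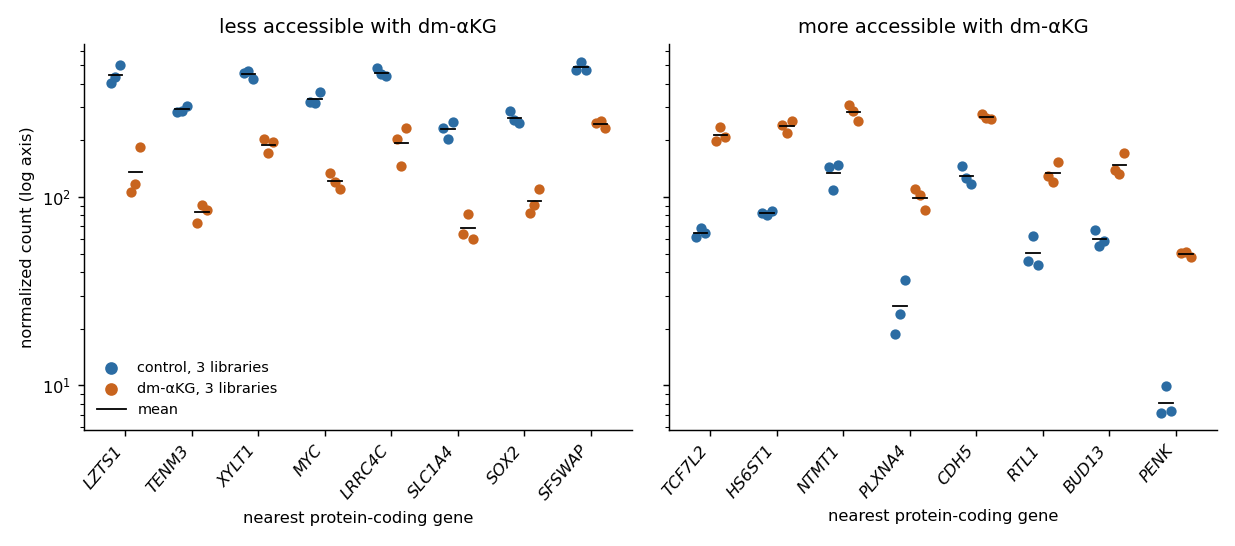
Normalized counts, on a log axis, of the 8 less and 8 more accessible far peaks named by smallest adjusted p; each point is a library, black lines are means of 3, and names are the nearest protein-coding gene. In all 16 the 3 dm-αKG libraries lie to one side of the 3 controls, which the naming required. Means run from PENK at 8.1 to 49.8 up to SFSWAP at 491 to 244.

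The far peaks with the highest counts were not called. The 5 far peaks with the highest control means lay near RREB1 (1552), NKX1-1 (1290), YWHAZ (1121), PARP11 (1000) and TULP4 (959), and their log2 fold changes were between −0.33 and 0.12. Only the YWHAZ peak had an adjusted p below 0.01 (5.16e-05 in edgeR), at −0.33. When all peaks were ranked by mean count and cut into 5 groups of equal size, the highest group held 2230 far peaks, of which 1.3% were less and 0.135% more accessible, and the lowest held 7567, of which 2.72% and 1.94% were. The gradient was not particular to far peaks: over all peaks the highest group had 0.577% and 0.0262%, and the lowest 2.43% and 1.47%.

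Nearest genes differed widely in how many far peaks surrounded them. TPTE on chromosome 21 had 148, spread from 5013585 to 10650607, of which 2 became less and 1 more accessible, and the 3 called peaks farthest from a coding start were these, at 3978249 to 4055281 bp (log2 fold changes 1.12, −1.13 and −1.48). Of these calls, the first was lost without control library 1 or 3 or dm-αKG library 1 or 2 (0.99 to 1.10), the second without control library 1 or 2 or dm-αKG library 1 or 2 (−1.17 to −0.86), and the last held in all 6 fits with 1 library left out. DESeq2 called neither of the first 2 (1.13 and −1.11), and the second was also lost under GC offsets (−1.003). SOX4, a developmental transcription factor, had 96 (1 less), ZFHX3 61 (3 less), JARID2, a partner of Polycomb repressive complex 2, 60 (3 less), and RBFOX1, a splicing regulator, 57 (4 less and 2 more). By called peaks, LZTS1 led with 7 and was followed by AUTS2 (6 of 36), MYC (6 of 51) and RBFOX1 (6 of 57), and then SFSWAP (5 of 17). With the exception of RBFOX1, all called far peaks of these 5 genes were less accessible. These genes were ranked by the calls themselves, and over all far peaks 2.76% were less and 1.23% more accessible.

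Some far peaks lay in close runs. Joined across gaps of up to 12.5 kb, 10929 of them fell in 2496 runs of 3 or more, and 7051 stood alone. The longest run by number held 29 peaks over 81.5 kb near TGIF1, with 0 called and a median log2 fold change of −0.11. The next by number, runs of 24 near SOX4 and SCAND3, had 1 and 0 less accessible and medians of −0.17 and 0.006. The runs that follow were instead picked by their number of less accessible peaks, so their values are a description only. A run of 18 near SMAD6, an inhibitor of BMP signalling, had 5 less accessible over 35.9 kb and a median of −0.72. Near LZTS1 a run of 6 peaks over 23.5 kb had 4 less accessible and a median of −1.08.

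Genes of early lineages were read as lists, through the far peaks nearest to them. Of 26 genes of naive and general pluripotency, 11 had far peaks, 179 in all, of which 9 became less accessible (5.03%) and 0 more (median log2 fold change −0.21). Over all far peaks 2.76% were less accessible and 1.23% more, and over all peaks 1.96% and 0.782%. The 9 lay at SOX2 (3 of 32), TBX3 (2 of 31), KLF4 (1 of 34), KLF5 (1 of 24), FOXD3 (1 of 9) and SALL4 (1 of 7), all transcription factors of pluripotent cells. No far peak at TFCP2L1, ESRRB, ZFP42, PRDM14 or DPPA4 was called. At KLF4 the called peak held 73.3, 40.3 and 52.2 counts in control and 15.8, 18 and 12 with dm-αKG (log2 fold change −1.83 ± 0.3, edgeR adjusted p = 1.76e-06). Under GC offsets the list had 5 less and 3 more accessible (2.79% and 1.68%, against 2.0% and 1.73% of all far peaks), and without dm-αKG library 3 it had 12 and 1. The calls at KLF5 (log2 fold change −1.17) and SALL4 (−1.03) were lost with any 1 of the 6 libraries left out, with changes from −1.43 to −1.06 and from −1.16 to −0.83, and that at FOXD3 (−1.03) without control library 2 (−0.96) or dm-αKG library 1 (−1.11) or 2 (−0.99). DESeq2 and the GC offsets did not call these 3 peaks either.

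Trophoblast genes had 140 far peaks at 6 of 20 genes, with 1 less and 2 more accessible (0.714% and 1.43%, against 2.76% and 1.23% of all far peaks) and a median of −0.02. The more accessible ones lay near GATA3 (1.56 ± 0.32, edgeR adjusted p = 0.000161) and TFAP2A (1.25 ± 0.31, adjusted p = 0.00185), and the less accessible one near TEAD1 (−1.82 ± 0.42, adjusted p = 0.000769). GATA3 and TFAP2A each had 1 called far peak, of 26 and 25. The TFAP2A call was lost without control library 2 (0.92) or dm-αKG library 2 (1.15) and under DESeq2 (1.25), and the TEAD1 call without dm-αKG library 1 (−1.47). No far peak at TFAP2C, which had 38, was called.

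Primed epiblast genes had 74 far peaks (2 less, or 2.7%, both at SOX11, 0 more), primitive endoderm genes 54 (1 more, or 1.85%, at FOXA2), and primitive streak and mesoderm genes 18 with 0 called. Neural and neural crest genes had 153, with 2 less accessible at SOX21 (1.31%) and 1 more accessible at SOX9 (0.654%). Of 19 far peaks at JUN and FOSL2, members of the JUN and FOS families, 1 at FOSL2 was more accessible (1.27 ± 0.28, edgeR adjusted p = 0.000481). The 18 far peaks at the NRF2 list were all nearest SLC7A11, the cystine transporter, and 0 were called. Effectors of WNT and FGF signalling had 93 far peaks (2.15% less and 1.08% more accessible), with AXIN2 and SPRY2 holding 1 less accessible peak each and TCF7L2 the more accessible peak described above. Among Hippo and TEAD targets, CCN2 had 1 far peak, not called, and TEAD1, which is also in the trophoblast list, the one given there. In all lists together 16 of 739 far peaks were less accessible (2.17%) and 6 more (0.812%), below the 2.76% and 1.23% of all far peaks. Leaving out 1 library ended the calls of the named peaks at SOX11 (any but control library 2, −1.31 to −0.95), FOXA2 (control library 1 or 3 or dm-αKG library 2, 0.83 to 0.87), SOX9 (control library 2 or dm-αKG library 1, both 0.92) and AXIN2 (control library 2, −1.07). In the primed list 0 peaks were called under DESeq2, GC offsets or the replicate block, and DESeq2 called 0 in the primitive endoderm list and not the peak at AXIN2 (−1.34).

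Starts of noncoding genes were a part of the far peaks by construction, since the rule used coding starts. Within 1 kb of a lncRNA transcript start lay 1726 of them, with a median GC content of 57% against 50% elsewhere, and 17 became less and 15 more accessible (0.985% and 0.869%), against 637 and 278 of 22000 elsewhere (2.9% and 1.26%). The most accessible in control was 160 bp from a start of LINC00393 and fell by 0.45 on the log2 scale (SE 0.07, edgeR adjusted p = 6.03e-07), which is less than the fold required for a call. The next 4 by count, at LINC01508, LINC02026, ENSG00000291184 and LINC00472, had log2 fold changes between −0.06 and 0.02. The less accessible one with the smallest adjusted p, at LINC02459 near TBX5, went from 243, 229 and 177 counts to 59.5, 57.7 and 88.3 (−1.71 ± 0.16, edgeR adjusted p = 1.94e-15), and a second start of PVT1 from 111, 79.7 and 87.5 to 23.7, 25.7 and 32.9. Among the more accessible, the smallest adjusted p was that of the NTMT1 peak given above, 640 bp from a start of LINC00963 (1.1 ± 0.12, edgeR adjusted p = 8.11e-12). A start of LINC00609 near BRMS1L rose from 54.6, 52.6 and 31.6 to 102, 91.1 and 98.8 (1.04 ± 0.2, edgeR adjusted p = 3.98e-05). It had 0.86 without control library 3, under the fold for a call. The remaining called starts named lay near CRYBB2 (−1.16), JAG1 (−1.05) and PCDH18 (−1.53), and near LAT (1.93), ANXA2 (1.64) and CYYR1 (1.54), where the JAG1 change was −0.78 without dm-αKG library 1 and −0.93 under GC offsets. The balance at these starts turned under GC offsets, with 9 less and 18 more accessible, and DESeq2 called 10 and 9. With 1 library left out, 10 were less accessible without control library 3 or dm-αKG library 2, and 9 more accessible without control library 2. By gene bodies, 5605 far peaks lay in introns of protein-coding genes (2.93% less, 1.59% more) and 251 in their exons (4 and 4 called, 1.59% each). In lncRNA genes lay 6394 (2.53% and 1.24%), and 11476 lay in no protein-coding or lncRNA gene (2.82% and 1.05%). Farther than 100 kb from a start of any annotated gene lay 2792, with 94 less and 35 more accessible (3.37% and 1.25%). Over all far peaks the shares were 2.76% and 1.23%, and over all peaks 1.96% and 0.782%.

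Words of transcription factors were searched on both strands in the 200 bp around each centre. The OCT-SOX composite, on which OCT4 and SOX2 sit side by side, was written as CATTGT, 1 free base and ATGCAAA with up to 2 mismatches, the octamer as ATGCAAAT, SOX as ACAATGG, TEAD as GGAATGT, AP-1 as TGANTCA, NRF2 as TGACNNNGC, FOX as TGTTTAC, KLF as CCACNCCC, GATA as AGATAAG, TFAP2 as GCCNNNGGC, ZIC as CAGCAGG, the E-box of SNAI and ZEB factors as CAGGTG, and CTCF by its core with 1 mismatch. The OCT-SOX word shares letters with the octamer and the SOX word, so the sets overlap. A word is a run of letters, not evidence that a factor was bound.

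OCT-SOX was held by 630 far peaks, 2.66% of them against 1.38% of all peaks. Of these, 45 became less accessible and 1 more (7.14% and 0.159%), with a median log2 fold change of −0.34, against 2.64% and 1.26% and a median of −0.05 without it. This was not particular to far peaks: peaks with the word at 10 to 100 kb had 8.25% and 0.458% and a median of −0.31. The median of the far peaks with the word was 61.8 normalized counts in control and 48.2 with dm-αKG. The octamer (971 far peaks, 53 less and 13 more), the SOX word (1059, 68 and 7) and the TEAD word (1488, 71 and 8) had medians of −0.20, −0.22 and −0.18. Their shares less accessible were 5.46%, 6.42% and 4.77%, against 6.47%, 6.45% and 3.97% for peaks with these words at 10 to 100 kb. The TEAD word had 45 less accessible without control library 2 and between 2 and 4 more accessible without control library 1 or 3 or dm-αKG library 1 or 2. The octamer had 8 more accessible without control library 2 alone or dm-αKG library 1 alone, and the SOX word 4 without control library 3 or dm-αKG library 2 and with the replicate block. DESeq2 called 33 less and 0 more accessible with OCT-SOX, 38 and 7 with the octamer, 51 and 2 with SOX and 38 and 2 with TEAD. Under GC offsets TEAD had 46 less accessible, and SOX 12 more. Less accessible far peaks held the SOX word in 10.4% and the TEAD word in 10.9%, and more accessible ones in 2.39% and 2.73%. TEAD factors are the DNA-binding partners of YAP and TAZ. Within each of the GC classes up to 55%, far peaks with the OCT-SOX word had medians between −0.45 and −0.30, and those without it between −0.12 and −0.04.

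More accessible far peaks carried other words. AP-1 was held by 1958, of which 60 became more and 33 less accessible (3.06% and 1.69%), and FOX, the forkhead word, by 996 with 29 and 14 (2.91% and 1.41%). At 10 to 100 kb, peaks with AP-1 had 2.5% more and 2.07% less accessible, and those with FOX 2.67% and 1.77%. The AP-1 word stood in 20.5% of more accessible far peaks, 5.05% of less accessible ones and 8.25% of all far peaks. NRF2, a word of the response to oxidative stress, was held by 2094 with 41 more and 48 less (1.96% and 2.29%). Where NRF2 and AP-1 words were both found, in 319 far peaks, 22 became more accessible and 1 less (6.9% and 0.313%), with a median of 0.19. This pair was counted in far peaks only, so it is not shown to be particular to them. NRF2 without AP-1 was held by 1775, with 19 more and 47 less (1.07% and 2.65%). Over all far peaks 1.23% were more and 2.76% less accessible, and over all peaks 0.782% and 1.96%. DESeq2 called 35 more and 18 less accessible with AP-1, 19 and 7 with FOX, 22 and 31 with NRF2, and 14 and 0 with NRF2 and AP-1 together. The GC offsets put NRF2 at 54 more and 39 less, against 41 and 48. The NRF2 and AP-1 words can overlap in their first letters.

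CTCF, the factor that anchors chromatin loops, had its word in 2951 far peaks, 12.4% of them, of which 28 became less and 16 more accessible (0.949% and 0.542%), both below the background, with a median of 0.05. These counts were 18 less without control library 3, and 7 and 9 more without control library 2 and dm-αKG library 2. DESeq2 called 14 less and 3 more accessible with the CTCF word, and the GC offsets gave 22 and 24. At 10 to 100 kb, peaks with the CTCF word had 0.902% less and 0.415% more accessible and a median of 0.05. The KLF, GATA, TFAP2, ZIC and E-box words had medians between −0.09 and −0.04. Under GC offsets the medians moved up, to −0.23 for OCT-SOX, −0.14 for SOX, −0.10 for the octamer, −0.09 for TEAD, 0.12 for AP-1, 0.11 for FOX and 0.11 for CTCF. No test was run over words, which were chosen with earlier results of these data known.

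**Figure D4:**
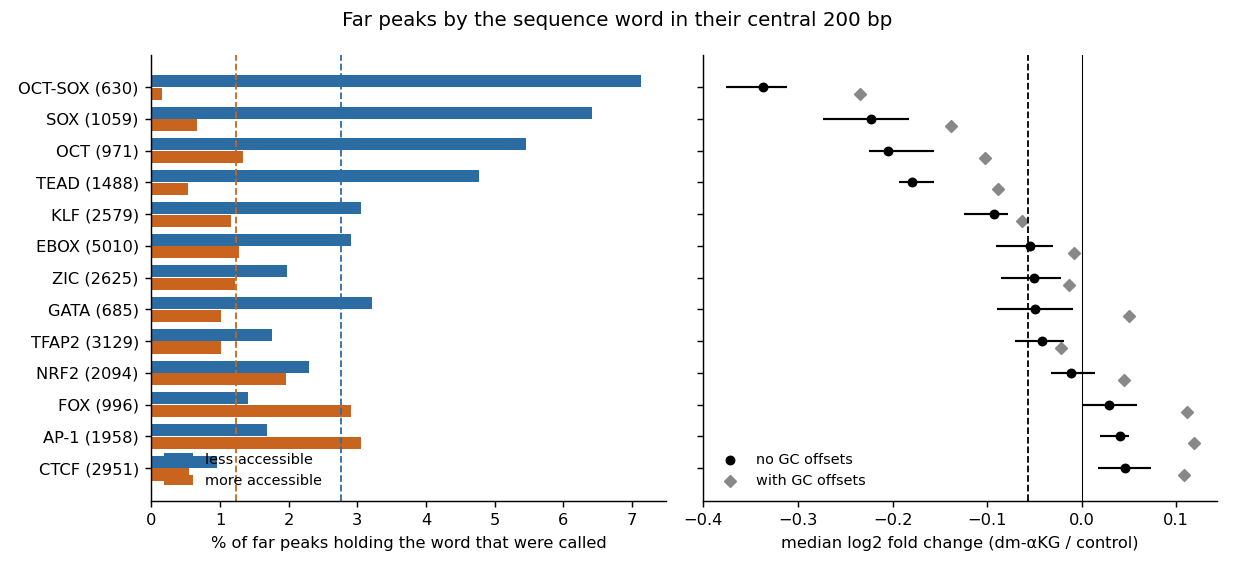
Left, percent of the far peaks holding each word (their number in brackets) that were called less and more accessible, with dashed lines at the percent of all far peaks (2.76 and 1.23). Right, their median log2 fold change, with the range over fits that leave out 1 library and, as diamonds, the fit with GC offsets; OCT-SOX lies lowest at −0.34 and the dashed line marks the median of all far peaks.

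Many far peaks resembled each other in sequence. Aligned to one another, 4217 (17.8%) shared at least 100 bp at 80% identity or more with another far peak and fell into 501 families, and 18 families had 30 or more. How reads that fit several copies were treated is not given in the sources used here, so copies may exchange reads. Families were not matched to a repeat annotation and are numbered by size. A copy of family 7 (chr13:104181944-104182143), the family with the largest share of less accessible peaks among the 18 and chosen after its values were seen, is shown. Capitals mark the words listed above, which here are NRF2 and E-box words of this copy and not a trait of the family. Of the 106 far peaks in family 7, 15.1% held the GATA word and 10.4% the TFAP2 word, and neither is marked in this copy. Only 30 were linked directly to the representative copy.
Family 7: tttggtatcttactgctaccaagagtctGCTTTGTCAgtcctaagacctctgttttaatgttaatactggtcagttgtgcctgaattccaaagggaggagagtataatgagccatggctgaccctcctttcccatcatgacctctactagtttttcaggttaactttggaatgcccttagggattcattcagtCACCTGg

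Of the 4217 far peaks in a family, 168 became less and 12 more accessible (3.98% and 0.285%), with a median log2 fold change of −0.19, whereas the 19509 in no family had 486 and 281 (2.49% and 1.44%) and a median of −0.03. Families held 25.7% of the less accessible far peaks and 4.1% of the more accessible ones. The higher share less accessible rests on this definition: with families defined by 150 bp at 90% identity, an alternative added after seeing the data, 694 far peaks were in a family, of which 1.73% were less accessible, below the 2.76% of all far peaks, and 0.288% more accessible. The same held closer to genes: 9247 other autosomal peaks aligned to a family had 4.94% less and 0.346% more accessible and a median of −0.24, and the 133562 that did not had 1.58%, 0.746% and 0.04. Under GC offsets, far peaks in a family had 126 less and 18 more accessible and a median of −0.15, and those in none 349 and 393 and a median of 0.04. The median GC content of far peaks in a family was 53%, above the 50% of the rest. These differences are over peaks and were not tested. Without dm-αKG library 1, 19 far peaks in a family were more accessible, and DESeq2 called 107 less and 7 more accessible.

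The families with the most far peaks are taken in turn. Family 1 held 617 far peaks on 22 chromosomes, with 21 less and 2 more accessible (3.4% and 0.324%) and a median of −0.21. Over all far peaks 2.76% were less and 1.23% more accessible. Without control library 2, 13 were less accessible. Its median copy held 29.5, 31.2 and 29.2 normalized counts in the controls and 26.5, 25.7 and 28.4 with dm-αKG, so the treatments were close although they did not overlap. Family 2 held 469, 51.8% with the SOX word, and its median was −0.25. Of the 469, 12 were less (2.56%, near the share of all far peaks) and 0 more accessible. With and without the SOX word, its copies had medians of −0.26 and −0.23. Family 3 held 260 copies of 72.5% GC, with 0 called and a median of −0.12.

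Family 6 held 198 far peaks, 72.7% with the octamer. Of the 198, 21 became less accessible (10.6%) and 0 more, against 2.76% and 1.23% of all far peaks, and the median log2 fold change was −0.50. The median copy held 80.5, 81.4 and 76.5 counts in the controls and 53.4, 55.2 and 60.6 with dm-αKG. In family 7, 25 of 106 became less accessible (23.6%) and 0 more, with a median of −0.58, and the median copy went from 72.9, 69.1 and 66.8 counts to 42.0, 42.3 and 46.4. The groups did not overlap in either family. In family 6 the copies with and without the octamer had nearly the same medians, −0.50 and −0.49. Peaks closer to genes that aligned to these families gave 60 of 356 and 53 of 241 less accessible and 0 more in both. Without dm-αKG library 1, 12 copies of family 6 and 13 of family 7 were less accessible. Without dm-αKG library 3 there were 32 of family 6, and without control library 2 there were 16 of family 7. Because these 2 families were picked for their change, their values are a description.

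Of the 18 families with 30 or more far peaks, 16 had a median below 0, and in 2 of the 18 any copy was more accessible. With GC offsets the family medians stayed below 0 in those 16 and ran from −0.49 to 0.14. Leaving out 1 library at a time moved families 10, 15 and 18 across 0. Family 10, of which 62.7% held the CTCF word and 61% the FOX word, had a median of 0.05 and 1 more accessible copy of 59.

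**Figure D5:**
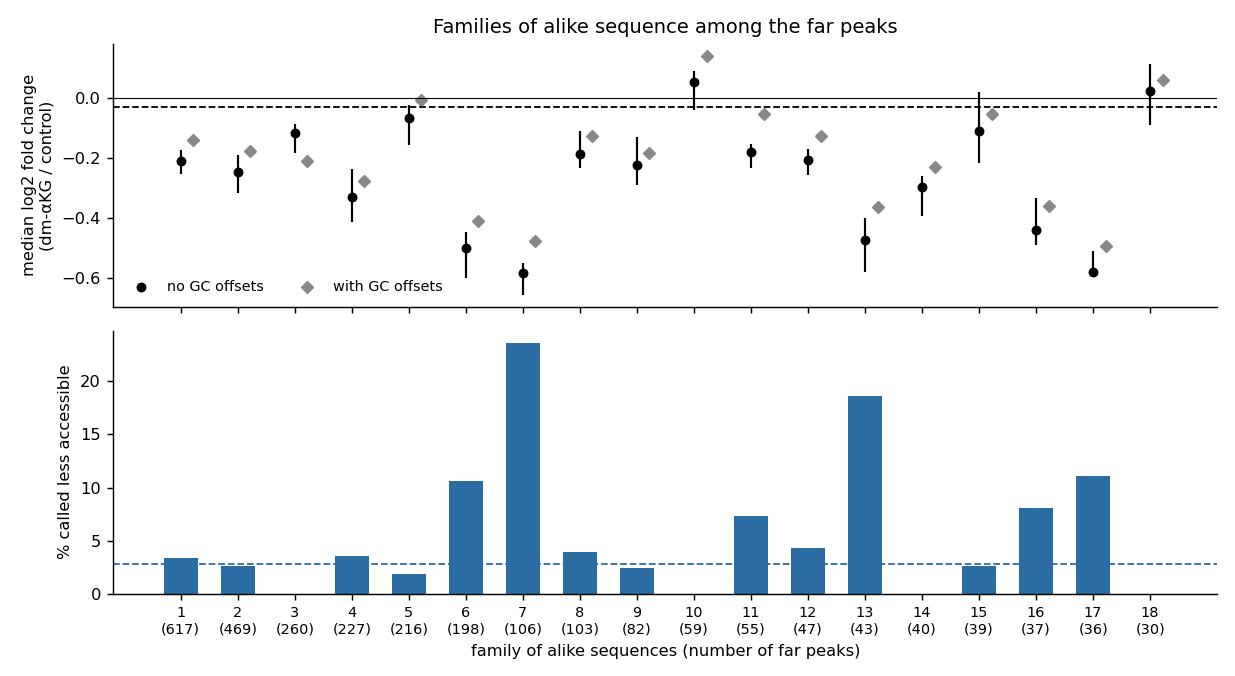
Top, median log2 fold change of the 18 families with 30 or more far peaks, with the range over fits that leave out 1 library and diamonds for the fit with GC offsets; the dashed line is the median of far peaks in no family (−0.03). Bottom, percent of each family called less accessible, with 23.6% in family 7 and a dashed line at 2.76%, the percent of all far peaks.

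The authors' peak lists, 1 per treatment, held 15308 far peaks in both. A further 4579 overlapped the control list only, of which 436 became less accessible and 1 more, and 3839 the dm-αKG list only, with 2 less and 240 more. Such peaks were weaker, with median fold enrichments over background of 7.27 and 7.7 in their list, against 12.8 in the control list for those in both. Since the lists come from the same libraries, this split is not independent of the counts. Among far peaks in both lists, 216 were less and 52 more accessible (1.41% and 0.34%), against 0.967% and 0.263% of all 122538 peaks in both lists.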

How the data were processed

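ATAC-seq libraries of H9 nES cells, 3 control and 3 given dm-αKG, were grouped by the treatment in the labels. The authors ran the ENCODE ATAC-seq pipeline once per treatment (Bowtie 2 to hg38, MACS2 peaks per replicate, irreproducible discovery rate), cut the reproducible peaks to 200 bp around the summit, merged both lists, and deposited raw counts of reads per merged peak and library, with bedtools 2.28.0. They also deposited 1 peak list per treatment, with each peak's fold enrichment over background and its q-value as −log10. The −log10 values deposited were not used for a result. How multiply aligned reads were handled is not given in the sources used here.

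For the test, edgeR 4.0.16 in R 4.3.3 was fitted to the counts of all 171517 peaks (TMM, quasi-likelihood, treatment as the only term, Benjamini-Hochberg over all peaks), where the study used DESeq2. Calls needed an adjusted p under 0.01 together with a log2 fold change beyond 1 in either direction. Normalized counts are at the mean scaled library size, and standard errors come from the change and its F statistic. Depth was 13025674 to 26828622 counts in peaks, and between 0 and 22 far peaks per library had a count of 0. Distances ran from the peak centre to 89067 protein-coding transcript starts of GENCODE 44, which may differ from the study's annotation. Families came from BLASTN 2.17.0, at an E-value of 1e-10 or less, joined by single links. Words were searched with Python 3.11.15 and pysam 0.24.0 on the unmasked genome. On simulated counts with known changes, the edgeR script was tested before use.

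Named peaks were the 8 less and 8 more accessible with the smallest adjusted p and no overlap between treatments, the 5 with the highest control count, the 3 called farthest from a start, the 5 nearest genes by number of far peaks and by number called, the smallest p at list genes with a call, and at lncRNA starts the 5 highest and up to 5 called in each direction. The far peaks, lists, words and this rule were chosen with earlier results of these data known, so no test was run over them. An exact permutation test of the shares of counts had been planned. It is not given, because far peaks were chosen with those results known and 3 libraries against 3 cannot give a p below 0.10. Replicate numbers were not used to pair the libraries in the main fit, and the labels do not say whether they do. Alternatives changed the tool, scaling, GC offsets, count minimum, thresholds, replicate block, libraries and definition of far peaks. Peaks on X and Y were left out of the far peaks by their definition. Some sequences that the naming rule would show are not reported here.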

Additional observations from a re-analysis of the deposited data

How the results depend on the processing

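The number of far peaks less accessible (654) stayed within 1.5 times under RLE size factors, total counts, a minimum of 10 counts, GC offsets and DESeq2, and between 502 and 737 with 1 library left out. The number more accessible (293) did too, at 216 to 267 with 1 library left out, except under DESeq2, which called 148. With an adjusted p below 0.05 and no fold threshold the counts were 2979 and 1390. Far peaks beyond 200 kb gave 306 and 145, and those over 100 kb from any GENCODE start 94 and 35, which are smaller sets by construction. For these 2 sets the difference in the share of counts was −0.188 and −0.0601 points, against −0.446, and between −0.616 and −0.344 with 1 library left out. The median log2 fold change of far peaks was 0.00013 under GC offsets and −0.09 to −0.04 with 1 library left out.

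Same-numbered libraries of the 2 treatments had correlations of their deviations of −0.0158, −0.0014 and 0.0127, so no shared deviation by replicate number was seen. Such values cannot show whether same-numbered libraries were handled together, which the labels do not say. With the replicate block, 631 far peaks were less and 282 more accessible, with a median of −0.06.

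Over 53 named peaks, 559 of 630 alternative values kept their direction and side of the threshold and 61 kept the direction only. The 10 that changed sign were at peaks that were not called. Under GC offsets, RREB1 had 0.0066 and TULP4 0.0038. With total counts, OGFRL1 had 0.0079. With 1 library left out, RREB1 ranged from −0.086 to 0.025, the LINC01508 peak near DIRAS2 from −0.036 to 0.095, the LINC02026 peak near HES1 from −0.098 to 0.00016, and OGFRL1 from −0.076 to 0.044. With families defined by 150 bp at 90% identity, added after seeing the data, 694 far peaks were in a family and 1.73% of them less accessible, against 3.98%. The causes were not tested.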
